A study of Mus musculus with 12 samples.

Results

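The genes described here are the matrix metalloproteinases (MMPs) *Mmp8*, *Mmp9*, *Mmp12*, *Mmp13*, *Mmp14*, *Mmp19*, *Mmp25* and *Mmp27*, together with *Timp1* and *Timp2*, which encode tissue inhibitors of metalloproteinases (TIMPs). They are 10 of the 48526 genes in the count table. They were chosen by symbol with earlier results of these data known, and each matched 1 Ensembl identifier. RNA had been sequenced from bone marrow-derived macrophages (BMDMs), which are grown from mouse bone marrow in mCSF, here from 3 female C57Bl/6J mice at day 7 of culture. Cultures of every mouse were kept as untreated controls, or were exposed for 16 hr to IL-4 at 100 pg/mL, to Wnt3a at 100 ng/mL, or to both at these concentrations. All groups share the strain and the mCSF culture, the labels give no age, and each group holds 1 culture from each of the same 3 mice. The table's columns for Wnt3a and for Wnt3a+IL-4 are not independent. In each mouse, 0 of 48526 genes had a Wnt3a count below the Wnt3a+IL-4 count or above 2 times that count. Values are therefore given for the untreated and IL-4 columns and for 2 parts computed in each mouse. The difference is what is left of the Wnt3a count after the Wnt3a+IL-4 count is subtracted. The remainder is 2 times the Wnt3a+IL-4 count, less the Wnt3a count. Both parts come from columns of cells labelled with Wnt3a, but the labels do not say which of them holds the cells that also received IL-4, and the assignment was not inferred from the values.

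MMPs are zinc-dependent endopeptidases that cut collagens, elastin, proteoglycans and many proteins at the cell surface. Most are secreted as inactive proenzymes and some are anchored in the plasma membrane, and TIMPs bind and block their active site. Macrophages are a known source of MMPs in healing and inflamed tissue, including the atherosclerotic plaque.

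Against untreated cells, *Mmp14*, which encodes a membrane-anchored collagenase, was 8.31-fold higher in the difference and 6.22-fold higher in the remainder, while it was 1.43-fold lower with IL-4 alone. *Mmp12*, the macrophage elastase, rose with IL-4 alone (2.95-fold) and in both parts. The neutrophil-type collagenase gene *Mmp8* rose in both parts, and the collagenase 3 gene *Mmp13* was called with IL-4 alone but in neither part against untreated cells. Of the inhibitors, *Timp1* was low but rose in both parts, and the abundant *Timp2* fell by 0.40 on the log2 scale in the difference. The *Timp2* call was lost when any mouse was left out, and the *Timp1* call in the difference without mouse 2 or mouse 3. Without mouse 3, the IL-4 calls of *Mmp14* and *Mmp13* were lost too.

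The stretches directly upstream of 4 of these genes are shown because *Mmp14*, *Mmp12* and *Mmp8* were called in both parts at levels well above the count filter, and because *Mmp13* holds the only motif match described next. They are the 250 bases before the RefSeq start in GRCm38.p6 (mm10), on the plus strand, written 5′ to 3′ in lower case, with a match to the AP-1 motif in capitals. The windows are chr14:54431348-54431597 for *Mmp14*, chr9:7344147-7344396 for *Mmp12*, chr9:7558179-7558428 for *Mmp8* and chr9:7272264-7272513 for *Mmp13*. The RefSeq and GENCODE starts differ, so that the end of the *Mmp12* window lies inside the GENCODE gene whose position is given next, and the windows of *Mmp8* and *Mmp14* end short of theirs.
Mmp14: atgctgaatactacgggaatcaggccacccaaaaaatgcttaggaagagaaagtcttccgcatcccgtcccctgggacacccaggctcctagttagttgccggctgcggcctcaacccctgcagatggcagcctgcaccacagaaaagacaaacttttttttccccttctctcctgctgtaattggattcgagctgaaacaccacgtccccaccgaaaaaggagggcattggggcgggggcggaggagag
Mmp12: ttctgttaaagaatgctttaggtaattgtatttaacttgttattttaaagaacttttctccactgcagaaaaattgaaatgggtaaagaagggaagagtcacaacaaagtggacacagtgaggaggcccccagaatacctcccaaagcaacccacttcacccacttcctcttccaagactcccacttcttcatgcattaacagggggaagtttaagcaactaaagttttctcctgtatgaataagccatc
Mmp8: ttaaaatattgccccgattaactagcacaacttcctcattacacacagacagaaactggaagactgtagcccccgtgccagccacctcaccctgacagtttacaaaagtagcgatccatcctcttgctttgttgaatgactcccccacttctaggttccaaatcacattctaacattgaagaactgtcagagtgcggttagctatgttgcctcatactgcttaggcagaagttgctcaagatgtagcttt
Mmp13: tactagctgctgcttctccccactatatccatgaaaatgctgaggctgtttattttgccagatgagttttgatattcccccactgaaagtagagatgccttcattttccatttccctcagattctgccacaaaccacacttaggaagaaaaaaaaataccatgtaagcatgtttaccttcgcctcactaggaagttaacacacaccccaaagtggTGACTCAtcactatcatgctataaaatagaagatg
Such a window was found for 8 of the 10 genes, and *Mmp9* and *Mmp19* had none. Both strands were searched for the AP-1 motif TGANTCA, the TCF/LEF motif CTTTGAT, and the STAT motifs TTCNNNGAA and TTCNNNNGAA, where N is any base. Matches of different motifs were allowed to overlap. AP-1 matched 1 of the 8 windows, that of *Mmp13*, with TGACTCA from 35 to 29 bases before the start, and 6.75% of the 32851 windows of all genes held a match. The other motifs matched 0 of the 8 windows. Among all windows, 3.21% held the TCF/LEF motif, 7.02% the STAT motif with 3 free bases and 5.85% the one with 4 free bases. A match describes letters only, and the absence of a match says nothing of the factor.

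Many of these genes are neighbours. In mm10, *Mmp13* (ENSMUSG00000050578), *Mmp12* (ENSMUSG00000049723), *Mmp8* (ENSMUSG00000005800) and *Mmp27* (ENSMUSG00000070323) lie on chromosome 9, on the plus strand, from 7272514 to 7283331, from 7344381 to 7369499, from 7558456 to 7568485 and from 7571396 to 7581885. Of the 10 *Mmp* genes in this stretch, these 4 passed the count filter. The other 6 had few reads or none, with 0 counts in every column for *Mmp1a*, *Mmp1b*, *Mmp3* and *Mmp20*, and with 28 counts for *Mmp10* and 8 for *Mmp7* over all columns. *Mmp14* (ENSMUSG00000000957) is on chromosome 14 from 54431612 to 54445364, *Mmp9* (ENSMUSG00000017737) on chromosome 2 from 164940780 to 164955850 and *Mmp19* (ENSMUSG00000025355) on chromosome 10 from 128790910 to 128800824, all on the plus strand. *Mmp25* (ENSMUSG00000023903) is on the minus strand of chromosome 17 from 23628311 to 23645277. *Timp1* (ENSMUSG00000001131) is on chromosome X from 20870166 to 20874735, plus strand, and *Timp2* (ENSMUSG00000017466) on chromosome 11 from 118301069 to 118355740, minus strand. *Mmp19* counts are uncertain, because the opposite-strand genes *Gm47093* and *Tmem198b* overlap 28.3% of its exon bases. With both strands searched, 24.7% of its 50-base stretches occur in other genes, which are these same genes and not a separate overlap. Strand use in the counting is not given in the sources used here. For *Mmp12*, 2.17% of exon bases overlap *Mmp1b* on the other strand.

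The untreated and IL-4 libraries held 13342492 to 17113982 counts, the difference 14171994 to 17453377 and the remainder 15707213 to 16998867. Of the 7 tested genes in a list of 8 IL-4 targets, 5 rose with IL-4 alone, 0 rose and 1 fell in the difference, and 6 rose in the remainder. A list of 8 Wnt targets was mostly too low to test, with 2 genes tested, of which 0 rose and 1 fell in each part. All 8 macrophage markers were detected, with a summed level of 43979 to 68614 CPM (counts scaled to a common library total with edgeR's TMM factors). Of the lymphoid markers 1 of 10 passed the filter, as did 1 of 9 markers of mast cells or eosinophils, and the summed level of either list was at most 4.07 CPM in any library. These are bulk RNA measurements, in which fewer cells of a type and less RNA per cell cannot be told apart.

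All 10 genes passed the filter of at least 10 counts in at least 3 of the 12 libraries. *Mmp25* did so only through the parts, with at most 3 counts in untreated cells and 9 with IL-4. Its calls in the parts, which are counted below, therefore depend on the same high values as the filter. The 10 genes were tested with edgeR's quasi-likelihood test with Benjamini-Hochberg adjustment over 12421 genes, and a gene was called at an adjusted p under 0.05. With IL-4 alone, 3 of the 10 genes were called, 2 higher and 1 lower, where 3.4% of all tested genes were called (2.31% higher and 1.09% lower). In the difference 7 were called against untreated cells, 6 higher and 1 lower, against 23.2% of all genes (11.8% higher and 11.4% lower). In the remainder 6 were called, all higher, against 25.3% of all genes (13.6% higher and 11.7% lower). The median log2 fold change of the 10 genes was 0.52 with IL-4 alone, 0.74 in the difference and 0.99 for the remainder. For all tested genes it was -0.0030, -0.01 and -0.02. The 3 comparisons share their untreated libraries, and the 10 genes were chosen with earlier results of these data known. Their shares of calls and medians beside those of all genes are therefore descriptions. Of 5 other *Mmp* and *Timp* genes tested, 0 were called with IL-4, 1 was higher in the difference and 1 lower in the remainder. With scaling by total counts alone, all genes shifted by a median of -0.06, -0.10 and -0.13, and the split of all calls moved from 287 higher and 135 lower to 247 and 212 with IL-4, from 1462 and 1422 to 1131 and 2238 in the difference, and from 1687 and 1450 to 1293 and 2342 in the remainder.

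**Figure D1:**
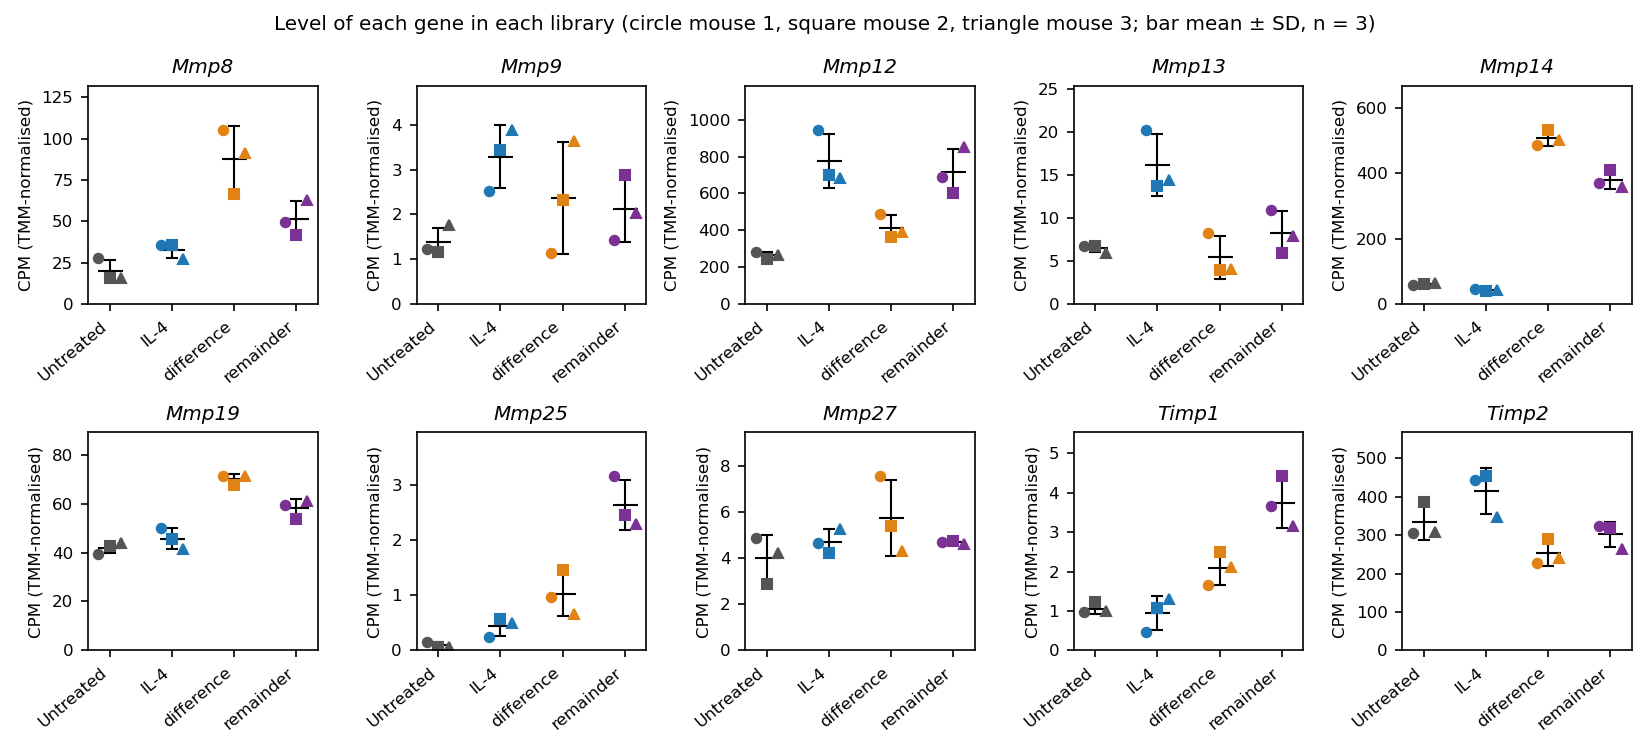
TMM-normalised CPM of the 10 genes (vertical axes, each from 0) in the untreated, IL-4, difference and remainder libraries of mouse 1 (circle), mouse 2 (square) and mouse 3 (triangle), with the mean and SD of each group (n = 3). *Mmp14* is at 358 CPM or more in all 6 libraries of the parts and at 64.7 CPM or less in the 6 others.

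Apart from *Mmp25*, which passed the count filter only through the parts, *Mmp14* had the largest fitted fold change of the 10 genes in each part. *Mmp14* did not rank so with IL-4. *Mmp14* encodes MT1-MMP, which cuts fibrillar collagen at the cell surface and activates pro-MMP2. Its level was 56.7, 61.8 and 64.7 CPM in untreated cells of mouse 1, 2 and 3, and 44.8, 40.2 and 43.2 CPM with IL-4. In the difference it was 485, 534 and 503 CPM, and in the remainder 371, 411 and 358 CPM. None of these 4 groups overlapped with another, IL-4 being the lowest and the difference the highest. The log2 fold change against untreated cells was -0.51 with IL-4 (standard error, SE, 0.08, edgeR adjusted p = 0.0025), 3.06 in the difference (SE 0.09, edgeR adjusted p = 3.2e-11) and 2.64 in the remainder (SE 0.09, edgeR adjusted p = 1.2e-10). The remainder was lower than the difference by 1.34-fold (edgeR adjusted p = 0.0064). Without mouse 3, neither the decrease with IL-4 (log2 fold change -0.49, edgeR adjusted p = 0.15) nor that between the parts (-0.38, edgeR adjusted p = 0.25) was called.

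*Mmp25* encodes MT6-MMP, a membrane-anchored protease known from neutrophils, and was the lowest of the 10 genes in untreated cells. Its counts were 3, 1 and 1 in untreated cells and 4, 9 and 7 with IL-4. They were 17, 24 and 9 in the difference, and 51, 40 and 35 in the remainder. Each group lay above the ones named before it with no overlap in CPM. Scaled for library size, the summed counts were 4.34 times those of untreated cells with IL-4 (exact 95% interval 1.58 to 14.8, counting error only), 10.5 times in the difference (4.22 to 33.8) and 26.5 times in the remainder (11.1 to 83.1). The increase was called in the difference (edgeR adjusted p = 3.8e-04) and in the remainder (edgeR adjusted p = 4.7e-06), and not with IL-4 (edgeR adjusted p = 0.099, or 0.048 when all genes with at least 1 count were tested). The remainder was called above the difference (2.52-fold, edgeR adjusted p = 0.024), a call that was lost without mouse 1 (adjusted p = 0.16), mouse 3 (0.33), either part of mouse 1 (0.090 without the difference, 0.11 without the remainder) or either part of mouse 3 (0.10 and 0.051).

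*Mmp12* encodes macrophage elastase, which is known to be made mainly by macrophages and degrades elastin. Untreated cells held 282, 246 and 264 CPM, and IL-4-treated cells held 946, 702 and 684 CPM. The level was 490, 364 and 389 CPM in the difference and 689, 603 and 852 CPM in the remainder. All 9 libraries with a treatment lay above the 3 untreated ones, and the remainder lay above the difference without overlap. *Mmp12* rose with IL-4 by 1.56 on the log2 scale (SE 0.15, edgeR adjusted p = 4.0e-05). The log2 fold change was 0.65 in the difference (SE 0.15, edgeR adjusted p = 0.0062) and 1.44 in the remainder (SE 0.15, edgeR adjusted p = 8.7e-06). Between the parts, *Mmp12* was 1.72-fold higher in the remainder (edgeR adjusted p = 0.0069), and this call was lost without mouse 3 (log2 fold change 0.60, edgeR adjusted p = 0.29).

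*Mmp8* and *Mmp13* encode secreted collagenases. *Mmp8*, known as neutrophil collagenase, was at 27.6, 16.0 and 15.9 CPM in untreated cells and at 36.0, 35.8 and 26.9 CPM with IL-4. It reached 105, 66.4 and 91.4 CPM in the difference, and 49.9, 41.8 and 63.1 CPM in the remainder. The libraries of the difference were the highest, above all those of the remainder, and the untreated and IL-4 groups overlapped through mouse 1 of the former and mouse 3 of the latter. *Mmp8* rose 4.40-fold in the difference (log2 fold change 2.14, SE 0.23, edgeR adjusted p = 1.1e-05) and 2.59-fold in the remainder (1.37, SE 0.23, edgeR adjusted p = 4.7e-04). With IL-4 the log2 fold change was 0.72 (SE 0.23, edgeR adjusted p = 0.13), with a positive value in 3 of 3 mice. It was called there by DESeq2 (adjusted p = 0.032) and without the untreated library of mouse 1 (log2 fold change 1.05, edgeR adjusted p = 0.020). It was also called when all genes with at least 1 count were tested (edgeR adjusted p = 2.2e-07). The log2 fold change was then 0.71, with a smaller SE of 0.12. The remainder against the difference gave a log2 fold change of -0.77 (SE 0.22, edgeR adjusted p = 0.058). This was called with the mouse as a replicate block (-0.75, edgeR adjusted p = 0.0499) and by DESeq2 (adjusted p = 0.010). With all genes of at least 1 count it was called too (-0.76, SE 0.11, edgeR adjusted p = 1.2e-09). Omissions that gave a call were mouse 2 (edgeR adjusted p = 0.029), untreated mouse 1 (0.024), untreated mouse 2 (0.044) and the difference of mouse 2 (0.042).

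*Mmp8* and *Mmp25* are known from neutrophils, so the neutrophil markers are given beside them. Of 15 such markers 8 passed the filter, and their summed level was 222 to 261 CPM in untreated cells, 207 to 255 CPM with IL-4, 223 to 254 CPM in the difference and 258 to 298 CPM in the remainder. Against untreated cells, 0 of the 8 were called with IL-4, 1 higher and 1 lower in the difference, and 1 higher and 4 lower in the remainder. The defining genes were low, with at most 3 counts of *Ly6g* in any library and 6.70 to 14.1 CPM of *S100a8*, and 0 of the 15 were at 0 in all libraries. *Csf3r* was the largest part of the summed level in every group. It was at 160 to 198 CPM in untreated cells and at 223 to 265 CPM in the remainder. *S100a9* was lower in the remainder, at 11.4 to 11.9 CPM against 16.8 to 19.9 CPM in untreated cells. So was *Ngp*, at 6.64 to 9.38 CPM against 12.9 to 16.9 CPM. The low *Prtn3* was higher there, at 0.37 to 0.99 CPM against 0.11 to 0.26 CPM. The part of neutrophils in these results was not tested.

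*Mmp13* encodes collagenase 3, which cuts fibrillar collagen and is also known from bone. Its level was 6.72, 6.69 and 5.96 CPM in untreated cells and 20.3, 13.7 and 14.4 CPM with IL-4. In the difference it was 8.24, 3.91 and 4.07 CPM, and in the remainder 10.9, 5.90 and 7.88 CPM. The IL-4 libraries were the highest of all 12, and both parts overlapped with the untreated group. *Mmp13* rose 2.50-fold with IL-4 (log2 fold change 1.32, SE 0.27, edgeR adjusted p = 0.013). This call was lost without mouse 3 (log2 fold change 1.33, edgeR adjusted p = 0.27), without the untreated library of mouse 3 (1.25, edgeR adjusted p = 0.081) and without the IL-4 library of mouse 1 (1.12, edgeR adjusted p = 0.076). The log2 fold change was -0.24 in the difference (SE 0.29, edgeR adjusted p = 0.59) and 0.35 in the remainder (SE 0.28, edgeR adjusted p = 0.39). Without mouse 1, the difference was called lower (-0.67, edgeR adjusted p = 0.041).

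Osteoclast markers are given beside *Mmp13* and *Mmp14* because both genes are also known from bone tissue. Of 8 osteoclast markers 6 passed the filter, and their summed level was 145 to 172 CPM in untreated cells, 281 to 306 CPM with IL-4, 224 to 293 CPM in the difference and 285 to 352 CPM in the remainder. Against untreated cells, 3 of the 6 were called higher with IL-4, 3 higher and 2 lower in the difference, and 4 higher in the remainder. *Acp5* was at 23.4 to 35.1 CPM in untreated cells and at 96.8 to 161 CPM over both parts. *Atp6v0d2* was at 31.0 to 35.6 CPM in untreated cells and at 142 to 165 CPM with IL-4. In the difference it was lower, at 14.8 to 18.3 CPM, and in the remainder it was at 52.5 to 91.8 CPM. *Dcstamp* was at 0.59 to 1.48 CPM in untreated cells and at 10.5 to 12.05 CPM in the remainder. *Ocstamp* was at 0.13 to 0.45 CPM in untreated cells and at most 0.061 CPM in the difference. *Nfatc1*, the largest part of the untreated sum, was at 82.2 to 98.6 CPM there and at 87.2 to 94.4 CPM in the difference. *Calcr* and *Oscar* had at most 1 and 3 counts in any library. The summed level of 13 stromal markers, of which 6 passed the filter, was 11.8 to 24.96 CPM in untreated cells, 13.7 to 37.7 CPM with IL-4, 13.6 to 20.2 CPM in the difference and 11.9 to 24.5 CPM in the remainder. That of 8 dendritic cell markers, of which 4 passed, was 3.45 to 4.25 CPM, 9.09 to 10.1 CPM, 4.58 to 8.81 CPM and 11.6 to 26.0 CPM in the same order. The part of these cell types in the results was not tested.

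The gelatinase gene *Mmp9* was low. It had 1.24, 1.16 and 1.76 CPM in untreated cells and 2.52, 3.45 and 3.90 CPM with IL-4, from 18 to 54 counts. The difference held 1.14, 2.32 and 3.64 CPM and the remainder 1.43, 2.89 and 2.04 CPM, and both overlapped with untreated cells, while the IL-4 group did not. The log2 fold change with IL-4 was 1.24 (SE 0.37, edgeR adjusted p = 0.10), with a positive value in 3 of 3 mice. It was called with the mouse as a replicate block (1.23, edgeR adjusted p = 0.038), with only the untreated and IL-4 libraries in the fit (edgeR adjusted p = 0.035), without the difference of mouse 1 (edgeR adjusted p = 0.043), and with all genes of at least 1 count (edgeR adjusted p = 7.3e-04). The values against untreated cells were 0.75 in the difference (edgeR adjusted p = 0.18, or 0.041 without the difference of mouse 1) and 0.62 in the remainder (edgeR adjusted p = 0.27).

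*Mmp19* and *Mmp27* encode MMPs that are less well characterised. *Mmp19* had 39.6, 42.6 and 43.7 CPM in untreated cells and 50.1, 45.6 and 41.3 CPM with IL-4. It had 71.2, 67.4 and 71.2 CPM in the difference and 59.4, 53.7 and 61.0 CPM in the remainder, both above all untreated and IL-4 libraries. *Mmp19* rose by 0.74 on the log2 scale in the difference (SE 0.09, edgeR adjusted p = 2.8e-05) and by 0.47 in the remainder (SE 0.09, edgeR adjusted p = 0.0011), with the limit on overlapping genes given before. The value with IL-4 was 0.12 (SE 0.09, edgeR adjusted p = 0.59). *Mmp27* ranged from 2.89 to 7.55 CPM over the 12 libraries, its groups overlapped, and it was called in none of the comparisons. Its log2 fold change in the difference was 0.52 (SE 0.22, edgeR adjusted p = 0.11, or 0.049 without the difference of mouse 3).

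The inhibitor genes moved in opposite directions in the difference. *Timp1*, which encodes a soluble inhibitor that is inducible in many cells, had 18, 19 and 16 counts in untreated cells and 8, 17 and 18 with IL-4. It had 29, 41 and 29 counts in the difference and 59, 72 and 48 in the remainder. In CPM these were 0.967, 1.22 and 1.00, then 0.479, 1.09 and 1.30, then 1.66, 2.50 and 2.11, and 3.66, 4.42 and 3.15. The difference lay above both the untreated and the IL-4 libraries, and the remainder above all of these. The ratio of summed counts to untreated cells, scaled for library size, was 1.97 in the difference (exact 95% interval 1.39 to 2.80, counting error only), 3.55 in the remainder (2.60 to 4.93) and 0.880 with IL-4 (0.574 to 1.34). The log2 fold change was 1.81 in the remainder (SE 0.29, edgeR adjusted p = 3.5e-04) and 0.97 in the difference (SE 0.31, edgeR adjusted p = 0.034). The call in the difference was lost with total counts as the scaling (edgeR adjusted p = 0.054), without mouse 2 (0.16) or mouse 3 (0.19), and without the untreated libraries of mouse 1 (0.097) or 3 (0.091) or the difference of mouse 2 (0.13) or 3 (0.074).

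*Timp2* encodes an inhibitor that also takes part in the activation of pro-MMP2 by MT1-MMP. It held 305, 386 and 309 CPM in untreated cells and 444, 453 and 346 CPM with IL-4. It held 228, 291 and 239 CPM in the difference and 323, 319 and 264 CPM in the remainder. The difference lay below all untreated libraries, while the other groups overlapped with them. *Timp2* fell by 0.40 on the log2 scale in the difference (SE 0.13, edgeR adjusted p = 0.041). This call was lost without mouse 1 (edgeR adjusted p = 0.11), mouse 2 (0.059) or mouse 3 (0.13), without the untreated library of mouse 2 (log2 fold change -0.28, adjusted p = 0.16) and without the difference of mouse 1 or 3 (0.12 each). The value was 0.32 with IL-4 (SE 0.13, edgeR adjusted p = 0.27, or 0.046 with all genes of at least 1 count) and -0.14 in the remainder (SE 0.13, edgeR adjusted p = 0.46).

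**Figure D2:**
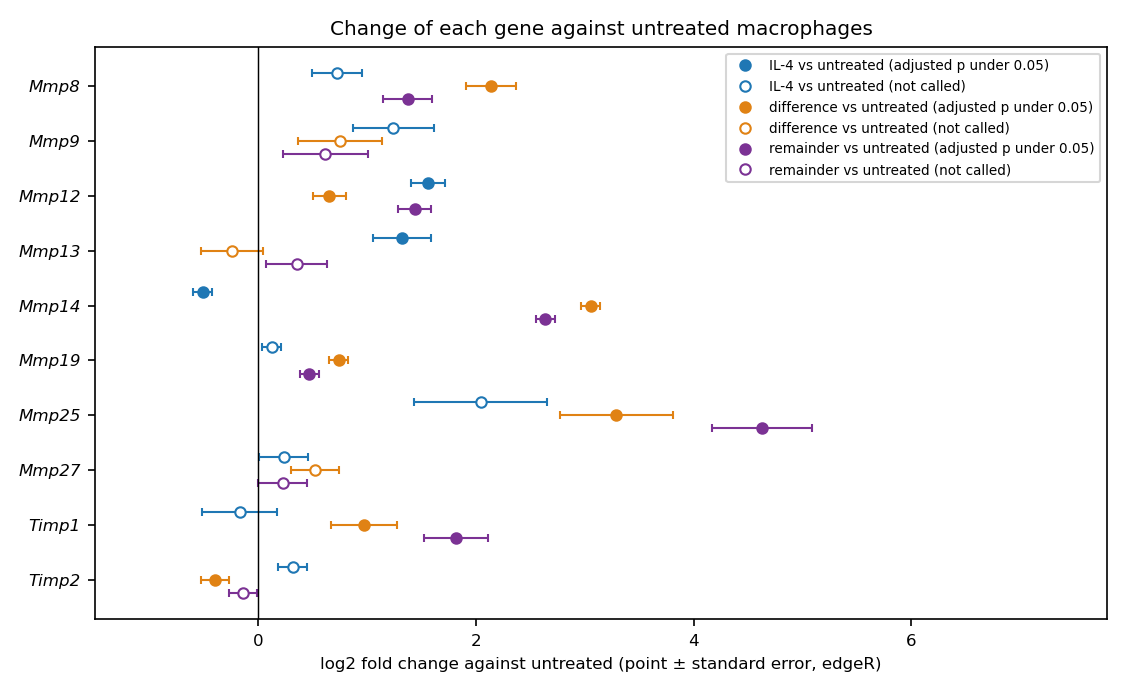
Log2 fold change against untreated cells (horizontal axis, point ± standard error from edgeR, 3 libraries per group) of the 10 genes with IL-4 and in either part. Filled points have an adjusted p under 0.05 and open points do not, and the points of *Mmp14* lie at 3.06 and 2.64 in the parts and at -0.51 with IL-4. The fitted values of *Mmp25* rest on 5 counts in untreated cells.

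To set the levels of different genes beside each other, CPM was divided by the length of all exons of a gene in kilobases. This length joins every annotated exon, and which transcripts these cells express was not examined. The order of the genes depends on it, and *Mmp19* keeps the limit on overlapping genes given before. In untreated cells *Timp2* was highest at 85.6 ± 11.6 CPM per kilobase (SD, n = 3), followed by *Mmp12* at 36.5 ± 2.52, *Mmp19* at 11.9 ± 0.61, *Mmp14* at 10.2 ± 0.68 and *Mmp8* at 8.18 ± 2.78. *Mmp13* (2.42 ± 0.16), *Mmp27* (1.81 ± 0.46), *Timp1* (1.20 ± 0.16), *Mmp9* (0.39 ± 0.092) and *Mmp25* (0.018 ± 0.011) came next. The ranges of *Mmp14* and *Mmp8*, and of *Mmp27* and *Timp1*, overlapped, so these neighbours did not differ beyond their spread. With IL-4, *Mmp12* (107 ± 20.3) and *Timp2* (106 ± 15.2) were the highest and overlapped, and so did *Mmp8* and *Mmp19*, *Mmp14* and *Mmp13*, and *Timp1* and *Mmp9*. In the difference the order began with *Mmp14* (85.1 ± 4.13), followed by *Timp2* (64.8 ± 8.56) and *Mmp12* (57.2 ± 9.19), and the latter pair overlapped. *Mmp8* (36.2 ± 8.16) and *Mmp19* (19.8 ± 0.62) followed without overlap, and *Mmp27*, *Timp1* and *Mmp13* lay between 2.02 and 2.60 with overlapping ranges. In the remainder *Mmp12* (98.7 ± 17.5) came first, above *Timp2* (77.5 ± 8.50) and *Mmp14* (63.7 ± 4.63), and the ranges of *Timp2* and *Mmp14* overlapped. *Mmp8* and *Mmp19*, *Timp1* and *Mmp13*, and *Mmp9* and *Mmp25* also overlapped there.

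On this length-scaled level, the ratio of *Mmp14* to *Timp2* was 0.12 ± 0.016 in untreated cells, 0.069 ± 0.012 with IL-4, 1.32 ± 0.11 in the difference and 0.83 ± 0.069 in the remainder (SD, n = 3). Its values did not overlap between any of these groups. The summed level of the 8 MMP genes over that of both TIMP genes was 0.84 ± 0.15, 1.40 ± 0.19, 3.09 ± 0.59 and 2.57 ± 0.54 in the same order, and here the parts overlapped with each other. *Mmp12* made up 51.1% of the summed MMP level in untreated cells and 71.3% with IL-4, against 28.0% in the difference and 47.6% in the remainder. *Mmp14* made up 14.4% and 4.83% in the former, against 42.0% and 31.2% in the parts. These ratios, sums and shares describe RNA levels of the 10 genes, depend on the exon lengths used, and were not tested.

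**Figure D3:**
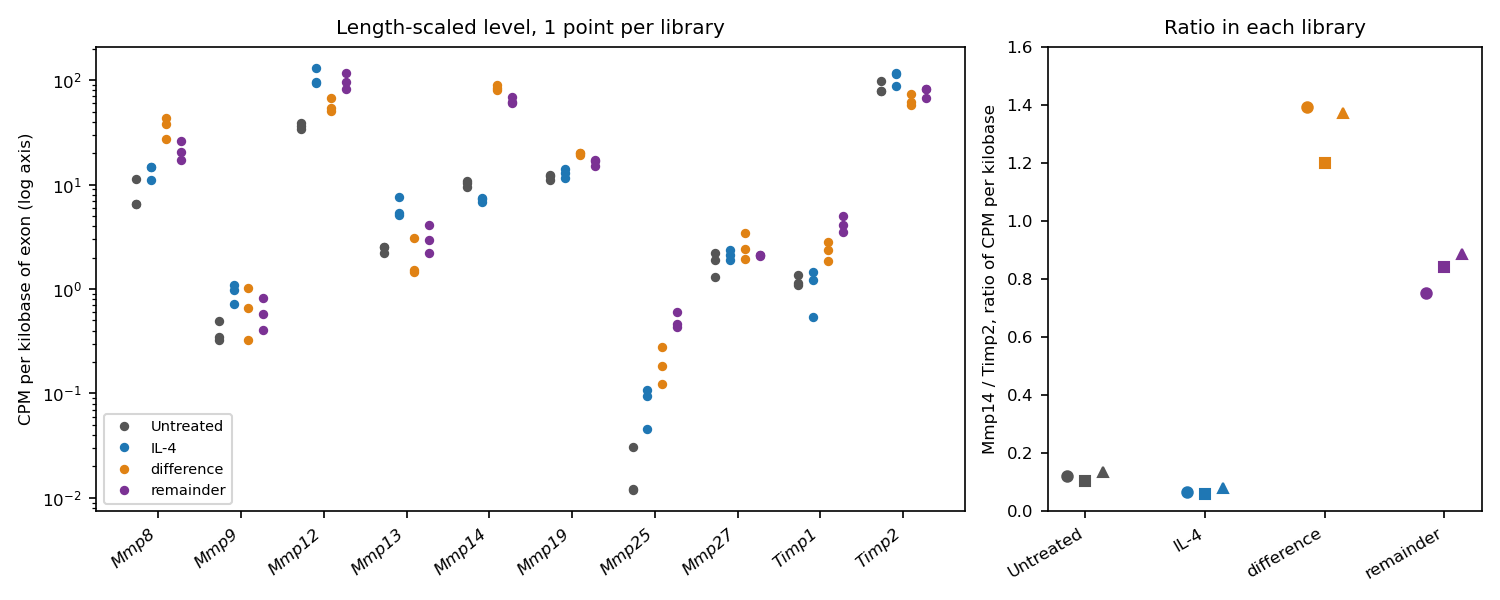
Left, CPM per kilobase of exon (log axis) of the 10 genes, with 1 point per library and the 4 groups in colour. Right, the ratio of the *Mmp14* level to the *Timp2* level per kilobase in each library (circle mouse 1, square mouse 2, triangle mouse 3), which is at most 0.14 in untreated and IL-4-treated cells and at least 0.75 in the parts.

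Comparing the parts with each other bears on how IL-4 and Wnt3a combine, if 1 part holds cells with Wnt3a alone and the other cells with both. *Mmp12* and *Mmp25* were higher and *Mmp14* was lower in the remainder than in the difference, so that 3 of the 10 genes were called, where 5.25% of all genes were called (2.87% higher and 2.38% lower). *Timp1* had a log2 fold change of 0.84 in the remainder against the difference (SE 0.27, edgeR adjusted p = 0.095, 0.047 without the IL-4 library of mouse 1 and 0.035 with all genes of at least 1 count), without overlap. That of *Mmp13* was 0.59 (SE 0.28, edgeR adjusted p = 0.27, 0.044 without the difference of mouse 1 and 0.018 with all genes of at least 1 count). *Mmp19* had a value of -0.27 (SE 0.09, edgeR adjusted p = 0.097, and 0.037 with total counts as the scaling). For *Mmp9*, *Mmp27* and *Timp2* the adjusted p lay between 0.31 and 0.89. With the columns as deposited, which share reads, 0 of the 10 genes were called.

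The IL-4 effect with Wnt3a minus that without it depends on which part is taken as the combined treatment. If the remainder is, 0 of the 10 genes were called by edgeR's quasi-likelihood test, and 0.105% of all genes were. With all genes of at least 1 count, 3 were called, namely *Mmp8*, *Mmp9* and *Mmp12*, and with the columns as deposited *Mmp12* was. At an unadjusted p under 0.05, 5 of the 10 genes passed, namely *Mmp8*, *Mmp9*, *Mmp12*, *Mmp19* and *Timp1*, where 12.7% of all genes passed. DESeq2 called 2, *Mmp8* (adjusted p = 0.0014) and *Mmp12* (0.037). *Mmp8* had the most negative value, -1.49 on the log2 scale (SE 0.32, edgeR adjusted p = 0.12), and was called without the untreated library of mouse 1 (-1.80, edgeR adjusted p = 0.034). If the difference is taken instead, 4 genes were called, against 7.33% of all genes. The values were then -2.34 for *Mmp12* (SE 0.21, edgeR adjusted p = 8.2e-06), -1.91 for *Mmp13* (SE 0.39, edgeR adjusted p = 0.0069), -3.38 for *Mmp25* (SE 0.68, edgeR adjusted p = 0.0065) and 0.93 for *Mmp14* (SE 0.12, edgeR adjusted p = 1.2e-04). Without mouse 3, *Mmp13* (-1.80, edgeR adjusted p = 0.19) and *Mmp25* (-2.92, edgeR adjusted p = 0.17) were not called. Neither was called with the columns as deposited (edgeR adjusted p = 0.092 and 0.079), and *Mmp25* passed the count filter only through the parts. *Timp2* had a value of -0.57 (SE 0.19, edgeR adjusted p = 0.086) and was called with the mouse as a replicate block (edgeR adjusted p = 0.026).

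**Figure D4:**
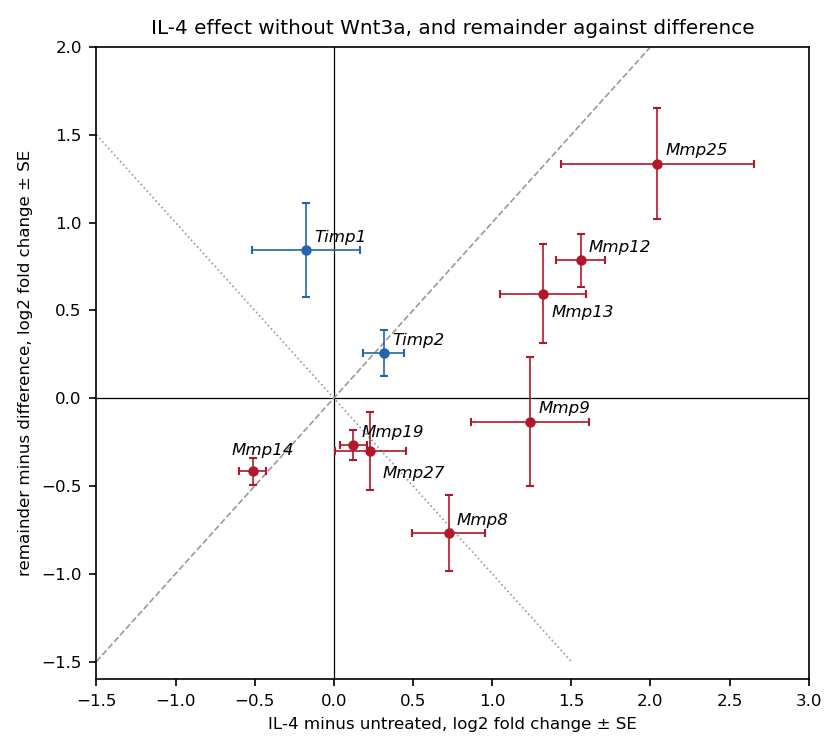
Log2 fold change of IL-4 against untreated cells (horizontal axis) and of the remainder against the difference (vertical axis) of the 10 genes, each point ± standard error from edgeR, MMP genes in red and TIMP genes in blue. On the dashed line both values are equal, on the dotted line they have opposite signs and equal size, and *Mmp12* lies at 1.56 and 0.79.

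The genes whose pattern over the 12 libraries was most like that of *Mmp14* were *Tgfbi*, a secreted matrix protein gene (Pearson r = 0.994 of log2 CPM), *Susd2* (r = 0.992) and *Acsl1*, an acyl-CoA synthetase gene (r = 0.990). *Tgfbi* rose from a mean of 213 CPM in untreated cells to 1112 CPM in the difference and 868 CPM in the remainder, and was at 164 CPM with IL-4. For *Mmp8* they were *Npepps* (r = 0.968), *Phtf1* (r = 0.932) and *Inpp5b* (r = 0.925), with smaller spans, such as 108 to 154 CPM for the group means of *Npepps*. The libraries share their mice and groups, so these correlations are descriptions.

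Other genes of matrix turnover were followed as lists. Of 17 other *Mmp* and *Timp* genes 5 could be tested, and 0 were called with IL-4. *Mmp2*, a gelatinase gene, was called higher in the difference (log2 fold change 1.15, edgeR adjusted p = 5.6e-04), and *Mmp28* lower in the remainder (-1.61, edgeR adjusted p = 0.011), both at low levels and named after their values were seen. Of 25 activators, inhibitors and receptors of matrix proteases 16 were tested, with 2 higher and 1 lower with IL-4, 2 higher and 4 lower in the difference, and 4 higher and 2 lower in the remainder. *Thbs1*, the thrombospondin 1 gene, rose in the difference (log2 fold change 2.60) and the remainder (2.06) and fell with IL-4 (-1.21, edgeR adjusted p = 0.0021). *Itgb3*, an integrin subunit gene, rose with IL-4 (1.33) and in the remainder (0.89) and fell in the difference (-1.77, edgeR adjusted p = 1.5e-05). *Plau*, which encodes the urokinase plasminogen activator, fell in the difference (-1.42) and the remainder (-0.85), and so did *Lrp1*, an endocytic receptor gene for proteases (-1.17 and -1.04).

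Of 19 *Adam* and *Adamts* genes 10 were tested, and 0 were called with IL-4, 3 higher and 3 lower in the difference, and 2 higher and 3 lower in the remainder. *Adamtsl4* (log2 fold change 1.59) and the sheddase gene *Adam9* (0.69) rose in the difference, while *Adamts10* (-0.92) and *Adam33* (-0.58, edgeR adjusted p = 0.040) fell. Their means moved the same way in the remainder, to 13.5, 180, 53.9 and 6.78 CPM in this order. In untreated cells they were 6.56, 118, 95.3 and 10.1 CPM. Of 20 matrix substrates 13 were tested, and 0 were called with IL-4, 4 higher and 1 lower in the difference, and 4 higher and 0 lower in the remainder. *Vcan*, the versican gene, rose by 5.06 on the log2 scale in the difference (SE 0.36, edgeR adjusted p = 2.3e-07) and by 2.92 in the remainder. The basement membrane collagen genes *Col4a1* (1.91) and *Col4a2* (1.82) rose in the difference, and the fibronectin gene *Fn1* rose in the remainder (1.41, edgeR adjusted p = 0.0074). In the remainder the means of *Col4a1* and *Col4a2* were 5.21 and 10.3 CPM, against 2.42 and 3.82 CPM in untreated cells. That of *Fn1* was 4.54 CPM in untreated cells, 11.1 CPM with IL-4, 4.75 CPM in the difference and 11.9 CPM in the remainder. The median log2 fold change in the difference was -0.10 for the *Adam* and *Adamts* list, 0.08 for the substrates and -0.15 for the activators, inhibitors and receptors, against -0.01 for all tested genes.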

How the data were processed

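Raw counts per gene were deposited for 12 samples. Per the labels and the study's methods, the authors trimmed single reads, aligned them to mm10 and counted them with HTSeq. The submitters' processing notes name Trimmomatic 0.36, STAR 2.6.0, HTSeq 0.11.1 and DESeq2 1.24.0. Identifiers were paired with symbols from a gene table, and positions and exon lengths came from GENCODE of the same build. Total counts were 13342492 to 17453377 in the libraries used, and precision is limited for genes with few counts.

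The difference and the remainder were computed from the deposited Wnt3a and Wnt3a+IL-4 counts of each mouse. Genes that reached 10 counts in 3 or more of the 12 libraries were tested in a single fit of 4 groups with edgeR 4.0.16 in R 4.3.3 (TMM, quasi-likelihood test, Benjamini-Hochberg adjustment, threshold 0.05), checked on simulated data. Alternatives were DESeq2 1.42.0, other scalings and filters, a threshold of 0.01, only the groups compared, the columns as deposited, the mouse as a block, and the omission of each mouse or library.

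The labels pair the samples, since each mouse gave a culture to every group. Deviations from group means in the 18 same-mouse pairs correlated from -0.42 to 0.45 across genes, and 6 were over 0.1. All 10 members are named. From each related list at most 4 called genes with the largest log2 fold change and a mean of at least 8 CPM were named, and for the 2 members of widest range among those with at least 8 CPM in their highest group, which leaves out *Mmp25*, the 3 genes of highest correlation (prior count 2). The members and lists were chosen with earlier results of these data known. Upstream sequences came from RefSeq (GRCm38.p6).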

Additional observations from a re-analysis of the deposited data

Results flagged for a closer look

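With the difference taken as the combined treatment and the remainder as Wnt3a alone, 4 of the 10 genes were called by edgeR's interaction test. It compares the IL-4 effect with Wnt3a to that without it, and 7.33% of all tested genes were called. The difference of the log2 effects was -2.34 for *Mmp12* (SE 0.21, adjusted p = 8.2e-06), -1.91 for *Mmp13* (SE 0.39, adjusted p = 0.0069), 0.93 for *Mmp14* (SE 0.12, adjusted p = 1.2e-04) and -3.38 for *Mmp25* (SE 0.68, adjusted p = 0.0065). With the parts assigned the other way, the values were -0.77, -0.73, 0.10 and -0.71, and none of the 4 was called by edgeR, while DESeq2 called *Mmp12* (adjusted p = 0.037). With the difference as the combined treatment, the calls of *Mmp13* and *Mmp25* were lost without mouse 3 (edgeR adjusted p = 0.19 and 0.17). They were also lost with the columns as deposited (edgeR adjusted p = 0.092 and 0.079). *Mmp25* passed the count filter only through the parts, with 5 summed counts in untreated cells and 20 with IL-4. Of the 7 IL-4 targets tested, 5 rose with IL-4 alone, 0 rose in the difference and 6 in the remainder. With the difference as the combined treatment, 6 of the 7 had a lower IL-4 effect with Wnt3a (median of the 7, -7.15 on the log2 scale), and with the remainder 0 were called in either direction (median -0.47). The labels do not give the assignment, and it was not inferred from these values.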

How the results depend on the processing

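The count of called members moved by over 1.5 times from its value in the report under these settings. With all genes of at least 1 count it was 7 with IL-4, 6 between the parts and 3 for the interaction with the remainder as the combined treatment. DESeq2 gave 2 for that interaction. With the columns as deposited it was 0 between the parts, 1 for that interaction and 2 for the reverse one. In the order IL-4, difference and remainder against untreated, remainder against difference, and the interaction with the remainder and then with the difference as the combined treatment, leaving out a mouse or library gave 1 to 4, 5 to 7, 6 to 6, 0 to 4, 0 to 1 and 2 to 5 members. Calls over all genes were then 77 to 532, 1220 to 3188, 1375 to 3807, 97 to 1188, 0 to 43 and 265 to 1459. At an adjusted p under 0.01 they were 227, 1687, 1960, 279, 0 and 472. With all genes of at least 1 count they were 812 with IL-4, 1454 between the parts, and 575 and 1505 for the interactions. With the columns as deposited they were 708, 0, 142 and 311 for the same 4 comparisons. DESeq2 called 165 genes for the first interaction, and the fit of only the groups compared called 422 between the parts. The cause of these shifts was not tested. Among other things, the settings change the number of genes in the fit and whether the columns share reads. With all genes of at least 1 count, the SE with IL-4 changed too, from 0.23 to 0.12 for *Mmp8* and from 0.61 to 0.65 for *Mmp25*.

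With the mouse as a replicate block, the paired fit called 4, 7, 6, 4, 0 and 5 members and 391, 2659, 2858, 556, 11 and 854 genes in the same order. Beyond the calls of *Mmp9*, *Mmp8* and *Timp2* given above it changed none of the members' calls.

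Directions turned only for values that were not called. For the reverse interaction, *Mmp8* was -0.016 with the replicate block and -0.59 with the columns, and ranged from -0.40 to 0.28 when a mouse or library was left out. *Mmp27* was -0.17 with the columns and ranged from -0.36 to 0.28, and *Mmp19* was -0.069 and *Timp1* 0.041 with the columns. Under the same omissions, *Timp1* with IL-4 ranged from -0.49 to 0.16, *Mmp9* between the parts from -0.48 to 0.32, *Mmp25* for the first interaction from -1.82 to 0.16, and *Timp2* there from -0.16 to 0.056.

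Limits are the unknown assignment of the parts, 3 mice per group, the few counts of *Mmp25*, *Timp1* and *Mmp9*, and the overlap of *Mmp19* with other genes. The calls against untreated cells in the remainder were 6 members under every alternative run.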
